A study of Mus musculus with 8 samples.

Results

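The type I interferon genes of mouse chromosome 4 were examined in serum-starved NIH3T3 cells, a mouse fibroblast line that grows indefinitely and came from embryos. The genes were Ifnb1, Ifna1, Ifna2, Ifna4, Ifna5, Ifna6, Ifna9, Ifna12, Ifna14 and Ifnab, and every non-control probe that carried one of these names in the array design was taken. Of these 10 genes, 8 were among the 35715 gene names on the array, and 11 of the 55681 non-control probes represented them. No probe carried the name Ifna6 or Ifna9. The genes had been chosen on their difference between cordycepin-treated and serum-treated cells in these same arrays, so that difference is given here as a description without a test.

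Cells had been kept in 0.5% newborn bovine serum for 24 h. One group of 3 arrays came from cells given 20 µM cordycepin in DMSO for 90 min and serum for the last 30 min. A second group of 3 arrays came from cells given the vehicle for 90 min and serum for the last 30 min, and the last group, of 2 arrays, came from starved cells given no serum, whose sample labels do not name the vehicle. Cordycepin is 3′-deoxyadenosine, an adenosine analogue that lacks the hydroxyl group needed to extend an RNA chain. No array held cells given cordycepin without serum, so cordycepin could be examined only in cells that also received serum. The design text calls the replicates independent but names no separate stocks of the line, so the spread between arrays is that between cultures of 1 cell line.

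Type I interferons are secreted proteins that alert cells to infection. Their genes lie together in 1 cluster and have no introns. In most cells they are silent until sensors of foreign nucleic acid activate the transcription factors Irf3 and Irf7, and Ifnb1 and Ifna4 are the genes usually described as the first to be switched on. The secreted proteins share a receptor made of Ifnar1 and Ifnar2, which signals through kinases and transcription factors to a large group of interferon-stimulated genes. Plasmacytoid dendritic cells are the best known source of interferon alpha, whereas infected fibroblasts mainly make interferon beta.

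The interferon alpha genes arose by duplication and are alike in sequence, so the probe sequences are shown first. The following probes lie in the same end part of the coding sequence, and their capitals mark bases in runs of at least 12 that are identical to the Ifnab probe listed first. In that Ifnab probe the capitals mark bases shared in the same way with any other interferon probe. Positions refer to build mm9. The Ifna5 and Ifna4 probes lie on the plus strand and all other probes of these genes on the minus strand.
Ifnab probe, chr4:88336567-88336626: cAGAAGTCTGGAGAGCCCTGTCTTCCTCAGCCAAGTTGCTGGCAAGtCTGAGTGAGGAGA
Ifna14 probe, chr4:88217137-88217196: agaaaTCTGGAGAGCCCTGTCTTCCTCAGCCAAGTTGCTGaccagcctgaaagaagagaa
Ifna5 probe, chr4:88481935-88481994: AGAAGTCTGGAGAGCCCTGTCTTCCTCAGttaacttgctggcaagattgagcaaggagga
Ifna1 probe, chr4:88322191-88322250: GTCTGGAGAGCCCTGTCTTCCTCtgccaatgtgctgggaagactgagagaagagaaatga
Ifna2 probe, chr4:88329111-88329170: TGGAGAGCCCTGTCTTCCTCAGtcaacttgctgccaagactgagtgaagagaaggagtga
Ifna12 probe, chr4:88248644-88248703: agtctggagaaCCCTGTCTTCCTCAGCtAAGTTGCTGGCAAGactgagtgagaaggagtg

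The Ifna14 probe shared a run of 35 bases with the first Ifnab probe, the Ifna5 probe 29, the Ifna1 probe 23, the Ifna2 probe 22 and the Ifna12 probe 16. Aligned without gaps, the Ifna14 probe was identical to it at 52 of 59 overlapping bases and the Ifna12 probe at 51 of 56. Labelled RNA of 1 of these genes could therefore bind the probes of several, and the signals of these 6 probes cannot be assigned to single genes. The other probes are shown because their sequences set them apart. None of them held a run of 12 bases in common with the first Ifnab probe.
Ifnab probe, first 30 bases, chr4:88336537-88336566: aggagtgagtctgagacccagtggagagaa
Ifna12 probe, chr4:88248939-88248998: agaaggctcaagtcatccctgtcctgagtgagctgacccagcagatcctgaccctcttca
Ifna2 probe, chr4:88329482-88329541: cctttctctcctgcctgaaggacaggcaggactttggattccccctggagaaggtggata
Ifna4 probe, chr4:88487994-88488053: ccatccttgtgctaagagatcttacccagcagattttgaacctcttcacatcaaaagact

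These 4 probes and the Ifnb1 probe (chr4:88168023-88168082) had no run of 20 bases in common with any other probe of the array, on either strand. The second Ifnab probe directly followed the first along the gene, with 0 bases between them. For probes of the shared stretch, the search of the whole array found runs of at least 20 bases in other interferon alpha probes and in 1 probe with no gene name or position, and in no probe named for another gene. Only probes were compared with each other. Interferon transcripts, also those of genes with a probe elsewhere, were not compared, because no genome or transcript sequences of this build were used here.

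Levels are given as normalised log2 signal, the processed spot signal on a log2 scale after subtraction of its array’s 75th percentile, and 0 is therefore the brightness of a probe at that percentile. Testing was limited to probes that exceeded background clearly on all arrays of 1 group or more, and 9 of the 11 probes did. Brightness is set side by side only within a probe, since each probe has its own binding strength. In RNA from whole cultures, fewer expressing cells and less RNA per cell cannot be told apart.

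For the 9 tested probes, the signal was higher in every cordycepin array than in any other array. The genes were chosen on the cordycepin difference, and 3 of these probes passed the filter only through the cordycepin arrays. The share of all probes with such a separation is not given here, so nothing is read from this count. The first Ifnab probe, at chr4:88336567, measured 0.38, 0.08 and −0.13 in the cordycepin arrays, −3.10, −3.33 and −3.22 in the serum arrays, and −2.98 and −3.28 in the arrays without serum. Its difference between cordycepin and serum was 3.33 ± 0.16 (log2, SE from limma), or 10.0-fold. The second Ifnab probe, at chr4:88336507, measured 0.41, 0.03 and −0.44 with cordycepin, −7.08, −7.04 and −7.57 with serum, and −7.86 and −7.48 without serum. None of the arrays without cordycepin had it well above background, so its level there is a bound, and it was at least 36.5-fold higher with cordycepin than with serum. Ifnab encodes an interferon alpha protein. Both of its probes separated the cordycepin arrays from all others, although only the second had a sequence of its own on the array.

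**Figure D1:**
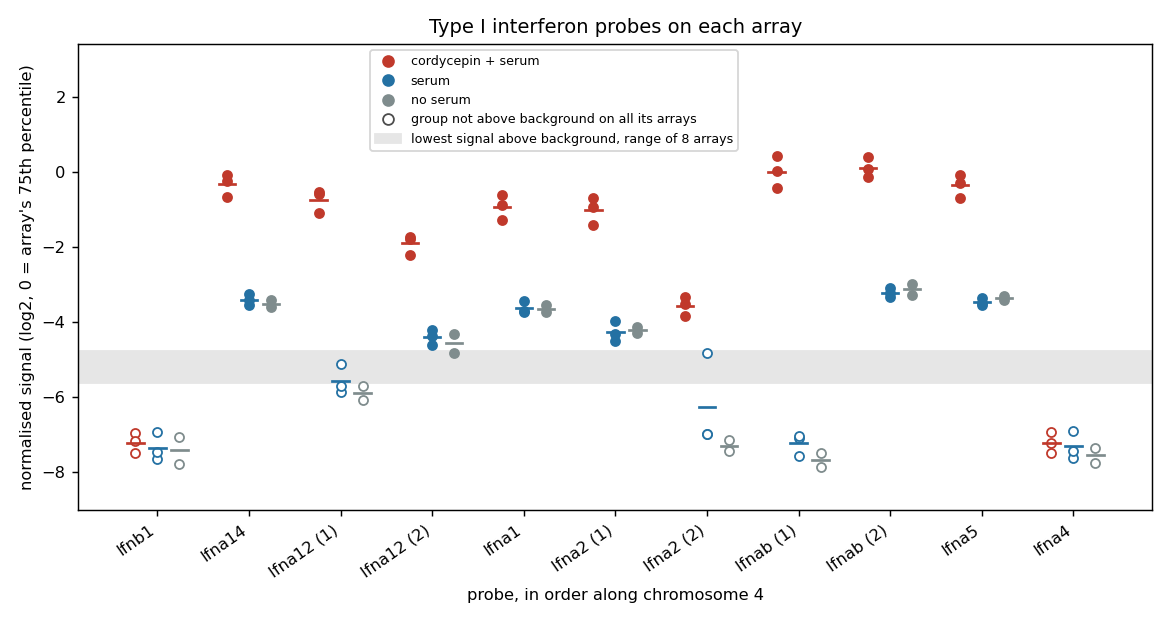
Normalised log2 signal of the 11 type I interferon probes (vertical axis, 0 is the array's 75th percentile) on the 3 cordycepin plus serum, 3 serum and 2 no-serum arrays, with 1 point per array and a bar at each group mean. Open points mark groups in which the probe was not above background on every array, and the grey band spans the lowest signal called above background on the 8 arrays. The cordycepin points lie above all others for 9 probes, while the Ifnb1 and Ifna4 points of all groups lie below the band.

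Ifna14, another interferon alpha gene, measured −0.08, −0.25 and −0.68 with cordycepin, −3.25, −3.40 and −3.55 with serum, and −3.60 and −3.42 without serum. Its difference from serum was 3.07 ± 0.17, or 8.37-fold. The Ifna5 probe was the only detected probe of these genes placed on the plus strand in mm9. It measured −0.07, −0.30 and −0.70 with cordycepin, −3.49, −3.36 and −3.55 with serum, and −3.31 and −3.41 without serum. The cordycepin arrays of both genes lay above the others without overlap, and the Ifna5 difference was 3.11 ± 0.16, or 8.64-fold. The Ifna5 probe shared 29 bases with the first Ifnab probe, so a rise of Ifna5 RNA itself was not shown by it.

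Ifna1 measured −0.63, −0.89 and −1.27 with cordycepin, −3.72, −3.44 and −3.71 with serum, and −3.56 and −3.73 without serum, a difference from serum of 2.69 ± 0.18 or 6.47-fold. The probe named Ifna1 lay in mm9 on the minus strand, 136 bases from the Ifna16 probe. The RefSeq table, which belongs to GRCm38.p6, places a gene of this name on the plus strand between Ifna4 and Ifne. Which of these genes the probe represents was therefore not settled by its name.

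Ifna2 and Ifna12 each had 1 probe in the shared stretch and 1 outside it. The Ifna2 probe of the shared stretch measured −0.71, −0.94 and −1.40 with cordycepin, −3.98, −4.32 and −4.49 with serum, and −4.14 and −4.28 without serum, with a difference from serum of 3.24 ± 0.20 or 9.48-fold. The other Ifna2 probe measured −3.33, −3.83 and −3.53 with cordycepin, −6.99, −6.99 and −4.81 with serum, and −7.15 and −7.43 without serum. It was well above background on 1 of 3 serum arrays and on 0 of 2 arrays without serum. The cordycepin arrays were again the highest, with a difference from serum of 2.70 ± 0.53, and the level was at least 3.61-fold above that without serum.

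The Ifna12 probe of the shared stretch measured −0.54, −0.60 and −1.10 with cordycepin, −5.11, −5.85 and −5.71 with serum, and −5.69 and −6.08 without serum, and 1 of the 5 arrays without cordycepin was above background. Its difference from serum was 4.81 ± 0.24, and it was at least 25.4-fold higher with cordycepin than without serum. The other Ifna12 probe measured −1.73, −1.79 and −2.20 with cordycepin, −4.22, −4.61 and −4.37 with serum, and −4.31 and −4.82 without serum. It was above background on all 8 arrays, and its difference from serum was 2.50 ± 0.19 or 5.64-fold. This Ifna12 probe had no run of 20 bases in common with another probe, was measured in all groups and was higher with cordycepin. Its longest run shared with another interferon probe was 11 bases, with Ifna4. Whether transcripts of other interferon alpha genes match it was not examined, so its signal is not assigned to Ifna12 alone.

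Ifnb1 and Ifna4 were not detected. The Ifnb1 probe measured −6.96, −7.48 and −7.17 with cordycepin, −7.64, −6.94 and −7.46 with serum, and −7.77 and −7.07 without serum. Ifna4 measured −6.93, −7.49 and −7.21 with cordycepin, −7.61, −6.88 and −7.43 with serum, and −7.74 and −7.35 without serum. Neither probe was well above background on any of the 8 arrays, and the groups overlapped. A level below this background would not have been seen, so no fold change is given for the 2 genes.

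Of the 9 probes tested, 9 were called higher with cordycepin than with serum, where a call required a log2 difference of 1 or more with an adjusted p below 0.05. Over all 30852 probes tested, 7.56% were called higher and 2.99% lower in this comparison. Because the genes were chosen on this comparison, nothing is read from that count, and 3 of the 9 probes passed the filter only through the cordycepin arrays. The median difference over the 9 probes was 3.11, against 0.09 over all probes, and it was 3.11 too with the second Ifnab probe set at its bound. Without the second Ifnab probe's open value, the differences ran from 2.50 to 5.19, the latter being that bound. With normexp background correction the differences were smaller, at 1.23 to 2.25 for 7 probes and 0.71 for the dim Ifna2 probe, which left 8 calls. Against the arrays without serum, 9 probes were again called higher, where the background was 6.46% of all probes, with a median of 3.20, or 3.17 with 3 probes set at their bound. That comparison uses the same cordycepin arrays and is no second measurement.

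Serum alone was tested, since the genes were not chosen on it. The test uses the same serum arrays as the comparison used for the choice, so it is not fully independent of that choice. None of the 9 probes was called in either direction (limma, 0 of 9), against 1.78% of all probes, and 0 of 9 had an unadjusted p under 0.05. The differences between serum and no serum ran from −0.11 to 1.03 with a median of 0.11, against −0.01 over all probes, and the smallest adjusted p was 0.748. It belonged to the dim Ifna2 probe, at 1.03 ± 0.60. Of the 9 probes, 3 had passed the filter only through the cordycepin arrays and could hardly show a serum effect. The other 6, measured on all arrays, gave 0 calls and differences from −0.11 to 0.16 with a median of −0.02, among them 0.11 ± 0.19 for Ifna14, 0.02 ± 0.20 for Ifna1, −0.09 ± 0.18 for the first Ifnab probe and −0.11 ± 0.18 for Ifna5. A serum effect on RNA detected by these probes was not detectable with 3 and 2 arrays.

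The probes also varied together among the cordycepin arrays. Replicate 1 was the highest of the 3 for 9 of the 9 tested probes, and replicate 3 was the lowest for 8 of them, the exception being the dim Ifna2 probe. Most of these probes lie in the shared stretch, so they are not separate observations of this order. The share of all probes with the same order is not given here. The SD over the cordycepin arrays ran from 0.25 to 0.43. The 75th percentile used for scaling was lowest in cordycepin replicate 1, at 302.2 intensity units, against 497.9 and 397.2 in the other cordycepin arrays, 405.3 to 533.2 with serum and 466.7 to 692 without serum. The part of this scaling in the shared order was not tested.

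Shared sequence and size of difference were then set side by side. Apart from the first Ifnab probe, 7 tested probes held a run of 16 to 35 bases in common with it, and their differences ran from 2.69 to 4.81, with Ifna13 at its bound of 3.79. They comprised the probes of Ifna14, Ifna5, Ifna1, Ifna2, Ifna12, the neighbouring gene Ifna13 and the probe with no name. Of the 5 tested interferon probes without such a run, 2 had serum arrays above background, with differences of 2.50 for Ifna12 and 2.70 for Ifna2, the latter with 1 of 3 such arrays. The other 3 were above background on no serum array, and their differences were at least 5.19 for the second Ifnab probe, 1.51 for Ifna16 and 0.57 for Ifne. Because 3 of these 5 passed the filter only through the cordycepin arrays, and 5 further probes without the run were not tested, nothing is read from their direction. On the 5 arrays without cordycepin, each of the 5 probes of these genes with a run of at least 20 bases, the first Ifnab probe included, was above background on all arrays. Of the 5 without a run of 12 bases, 1 was, and 3 were on none.

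**Figure D2:**
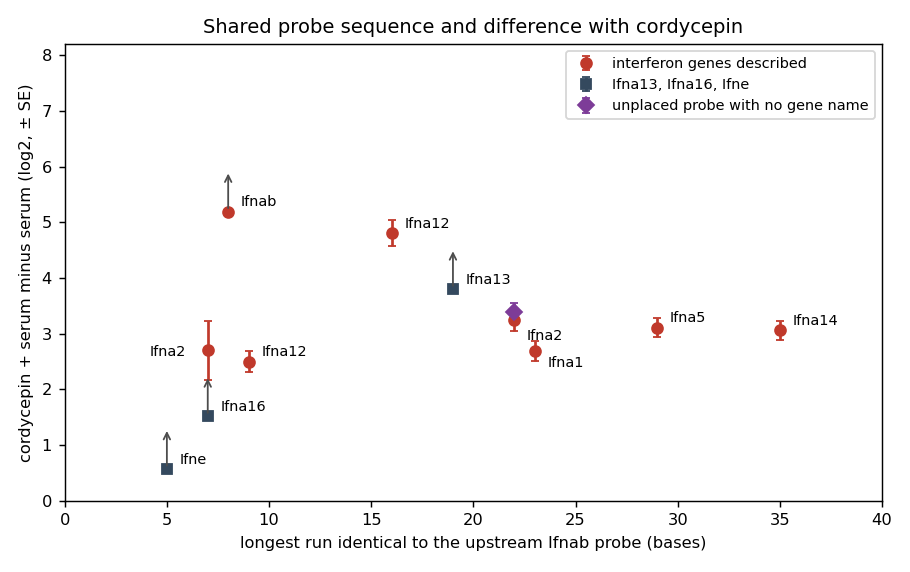
Difference between cordycepin plus serum and serum (vertical axis, log2, with SE) against the longest run of bases identical to the first Ifnab probe (horizontal axis), for the tested interferon probes other than that probe. Probes with runs of 16 to 35 bases lie between 2.69 and 4.81. Arrows mark probes above background on no serum array, which are drawn at their lower bound without SE: Ifna13 at 3.79, and among the shorter runs the second Ifnab probe at 5.19, Ifna16 at 1.51 and Ifne at 0.57.

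The genes were next placed along the cluster. The interval between the outermost probes, Ifnb1 and Ifna4, spanned 320 kb on chromosome 4 (88168023 to 88488053, mm9). Another 17 probes lay inside it, of which 10 were tested, with 2 called higher and 0 lower, against 7.56% and 2.99% of all probes. The 2 were Ifna13 and Ifna16, further interferon alpha genes on the minus strand, and neither was above background on any serum array. Ifna13 was at a mean of −1.40 with cordycepin and −5.95 with serum, at least 13.9-fold higher, and Ifna16 at −3.68 and −7.51, at least 2.86-fold higher. The Ifna13 probe shared 19 bases with the first Ifnab probe, whereas the longest run of the Ifna16 probe with it was 7.

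Of the minus-strand probes in the interval, the 2 tested that were not interferon probes were not called. Klhl9, an adaptor of a ubiquitin ligase, was brightly expressed, its probe lying 27.6 kb upstream of the first Ifnab probe on the minus strand. It was at 5.57 with cordycepin and 5.55 with serum, a difference of 0.02 ± 0.12 (limma adjusted p 0.931). A probe named Mrpl48, where the RefSeq table lists a pseudogene of that mitochondrial ribosomal protein gene between Ifna9 and Ifna12, differed by 0.16 ± 0.10 (adjusted p 0.305). The array design assigns this probe to a transcript of Mrpl48 itself, so its signal is not assigned to this site. The 2 Gm13274 probes, for a long non-coding RNA, and the probe of Pramel32 were not above background on any serum array and were not tested.

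Probes on the plus strand were counted in the same way. Besides Ifna5, 6 probes on that strand inside the interval were tested, and 0 were called higher or lower, against 7.56% and 2.99% of all probes. They included Gm13271, for which the RefSeq table gives the synonym Ifnz, at −0.82 ± 0.24 (adjusted p 0.0495) by 1 probe and −0.05 by the other, and Gm13286 at −0.62 ± 0.17 (adjusted p 0.0398), both below the fold required for a call. Gm13275 was at −0.29 ± 0.13 and Gm13272 at −0.37 ± 0.13. Ifna7 and Ifna11, other interferon alpha genes on this strand, were above background on 1 of 3 cordycepin and 1 of 3 serum arrays each and were not tested. Their means were −5.32 and −4.97 with cordycepin and −6.03 and −5.34 with serum. Of the 4 tested minus-strand probes that were not among the 10 genes, 2 were called higher, Ifna13 and Ifna16. Both had passed the filter only through the cordycepin arrays, so nothing is read from the counts of the 2 strands. A difference between the strands was not tested.

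**Figure D3:**
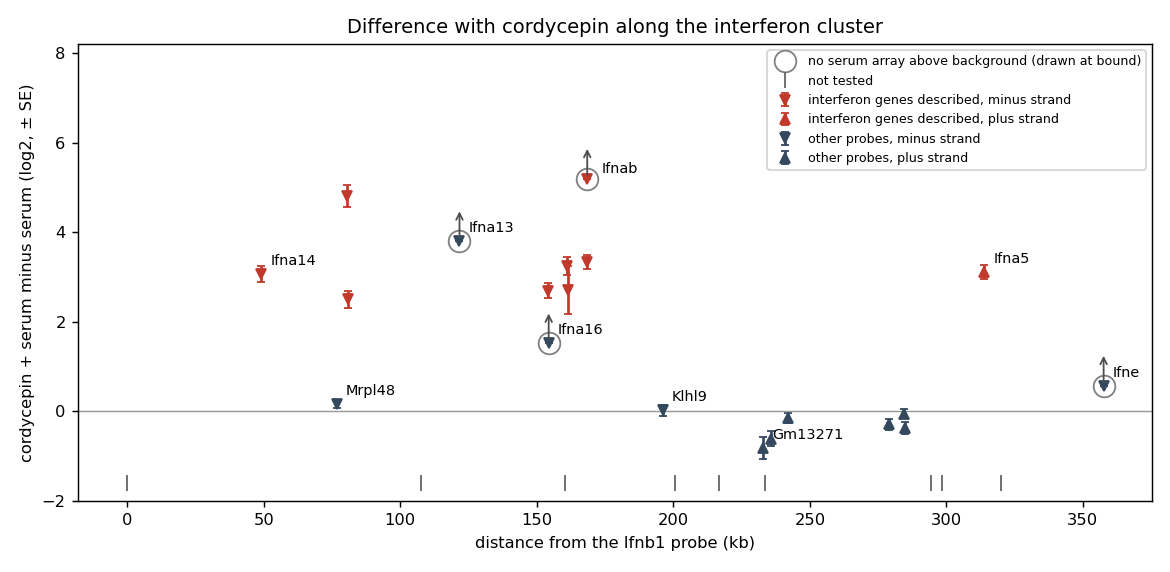
Difference between cordycepin plus serum and serum (vertical axis, log2, with SE) against distance from the Ifnb1 probe in kb (horizontal axis), for all tested probes of the interferon cluster and Ifne. Downward triangles are minus-strand and upward triangles plus-strand probes, the 10 genes described are in red, circles with an arrow mark probes above background on no serum array, drawn at their lower bound, and ticks near the bottom mark probes not tested. Inside the interval the minus-strand interferon probes lie at 2.50 or more, except Ifna16 at its bound of 1.51, while Klhl9 and Mrpl48 lie at 0.02 and 0.16, and of the plus-strand probes Ifna5 alone lies above 0.

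Outside the cluster, 68 probes lay within 1 Mb of either end, of which 35 were tested. Of these, 2 were called higher and 9 lower, against 7.56% and 2.99% of all probes. Ifne, which encodes interferon epsilon, lay beyond Ifna4 on the minus strand and was called higher (adjusted p 0.00218). It was above background on 2 of 3 cordycepin, 0 of 3 serum and 2 of 2 no-serum arrays. Its test rested on the no-serum arrays, where its mean was −5.15, against −4.62 with cordycepin, and the bound on its rise over serum was 1.48-fold. The other call was a long intergenic non-coding RNA at chr4:88637470 (adjusted p 0.047), which was above background on 2 of 3 cordycepin and 0 of 3 serum arrays, at least 1.32-fold higher, and lost its call when any array except cordycepin replicate 2 was left out. The lower calls included 3 adjacent minus-strand probes of a non-coding RNA at 88583426 to 88583700, at −1.82, −1.93 and −1.89. Several lower calls were thus probes of the same non-coding RNA and do not stand for separate genes. The protein-coding genes Focad, Hacd4, Mllt3 and Mtap were not called, with differences from −0.34 to 0.03.

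The promoters of the 10 genes were searched for the core of the site bound by interferon regulatory factors. Sequences came from RefSeq (GRCm38.p6) and covered 250 bases before to 50 after the start of each gene model. All 10 genes matched. In 5 of the 10 the model length was a multiple of 3, so that its start may be that of the coding sequence. The core, AANNGAAA, occurred on either strand in 10 of the 10 promoters, with 1 to 3 matches each, and in 23.9% of 32851 promoters of the same length. TATAAA, the core of the TATA box, occurred in 2 of the 10, Ifna6 and Ifnb1, and in 13.6% of all promoters, and no match of the 2 motifs overlapped in these genes. A match is a description of the letters and shows no binding.

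The stretches from 200 to 51 bases before the start are shown for Ifnab and Ifna14, whose probes were higher with cordycepin, and for Ifnb1, whose probe was not detected. All 3 genes lie on the minus strand, and capitals mark AANNGAAA on either strand. The Ifna14 stretch leaves out 1 of its 3 matches.
Ifnab promoter, chr4:88691319-88691468: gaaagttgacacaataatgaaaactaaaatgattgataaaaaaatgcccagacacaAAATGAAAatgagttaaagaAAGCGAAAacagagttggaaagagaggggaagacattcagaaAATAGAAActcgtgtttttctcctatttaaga
Ifna14 promoter, chr4:88571849-88571998: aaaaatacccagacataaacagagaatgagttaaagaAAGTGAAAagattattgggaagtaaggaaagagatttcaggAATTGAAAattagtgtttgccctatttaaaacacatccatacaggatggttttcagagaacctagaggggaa
Ifnb1 promoter, chr4:88522845-88522994: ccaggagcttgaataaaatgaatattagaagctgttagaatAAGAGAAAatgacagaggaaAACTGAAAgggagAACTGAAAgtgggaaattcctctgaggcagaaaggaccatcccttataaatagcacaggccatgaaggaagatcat

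The motif had 3 matches in Ifnab, 3 in Ifna14, 3 in Ifnb1 and 3 in Ifna4. The Ifnb1 and Ifna4 probes were not detected, and the signal of the Ifna14 probe cannot be assigned to that gene alone. A relation between the motif and the signals was not tested.

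Genes that sense nucleic acid and switch on interferon genes were not called with cordycepin. Of 26 such genes with a probe, 26 were tested, with 0 higher and 0 lower, against 7.56% and 2.99% of all probes. Their median difference was −0.11, against 0.09 over all probes. The sensors Ddx58 (RIG-I) and Ifih1 (MDA5) differed by −0.04 ± 0.13 and 0.03 ± 0.17, and Mb21d1 (cGAS) by 0.14 ± 0.13. Irf3 measured −0.54 ± 0.11 (adjusted p 0.0118), Irf5 −0.65 ± 0.13 (adjusted p 0.00955), Irf1 −0.66 ± 0.14 (adjusted p 0.0121) and the Toll-like receptor adaptor Ticam1 −0.93 ± 0.10 (adjusted p 0.000383), each short of the required fold. Irf7 was dim and differed by 0.23 ± 0.31. Without the fold requirement, 6 of these genes were lower and 0 higher. The matching share of all probes is not given here. Small differences were common, as 9580 of 30852 probes had an unadjusted p under 0.05 (limma, either direction). Nothing is therefore read from this count.

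Genes of the receptor and its signalling moved in both directions. Of 12 tested, 2 were called higher and 2 lower, against 7.56% and 2.99% of all probes, with a median of 0.16. Socs1 and Socs3, which are inhibitors of the receptor's kinases and are themselves switched on by cytokines, fell by 2.40 and 1.19 (limma adjusted p 7.17e-05 and 0.0145), and the call of Socs3 was lost without cordycepin replicate 1 or serum replicate 3, which left 1 lower call. Ptpn6, a phosphatase that limits signalling, rose by 1.57 ± 0.18 (adjusted p 0.000481). The receptor chains Ifnar1 and Ifnar2 were measured on all arrays, with differences of 0.65 ± 0.14 and 0.10 ± 0.16.

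Interferon-stimulated genes were largely at the level of the serum-treated cells. Of 37 on the list, 32 were tested, and 3 were called higher and 0 lower, against 7.56% and 2.99% of all probes. The median was 0.21, against 0.09 over all probes. Psmb8, a subunit of the immunoproteasome, was above background only with cordycepin and at least 5.17-fold higher. Dhx58, a relative of RIG-I, rose by 2.30 ± 0.20 (adjusted p 0.000137). Genes that react strongly to interferon differed little, with Ifit1 at −0.36 ± 0.33, Ifit3 at 0.08 ± 0.12, Isg15 at 0.22 ± 0.22 and the chemokine Cxcl10 at −0.14 ± 0.19. Mx1, Rsad2, Oas2, Oas3 and Cmpk2 were above background on no array. With serum against no serum, 1 gene of the list, Oas1a, was called lower (adjusted p 0.0456). It was above background on both arrays without serum and on no serum array, and was at least 1.79-fold higher without serum.

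**Figure D4:**
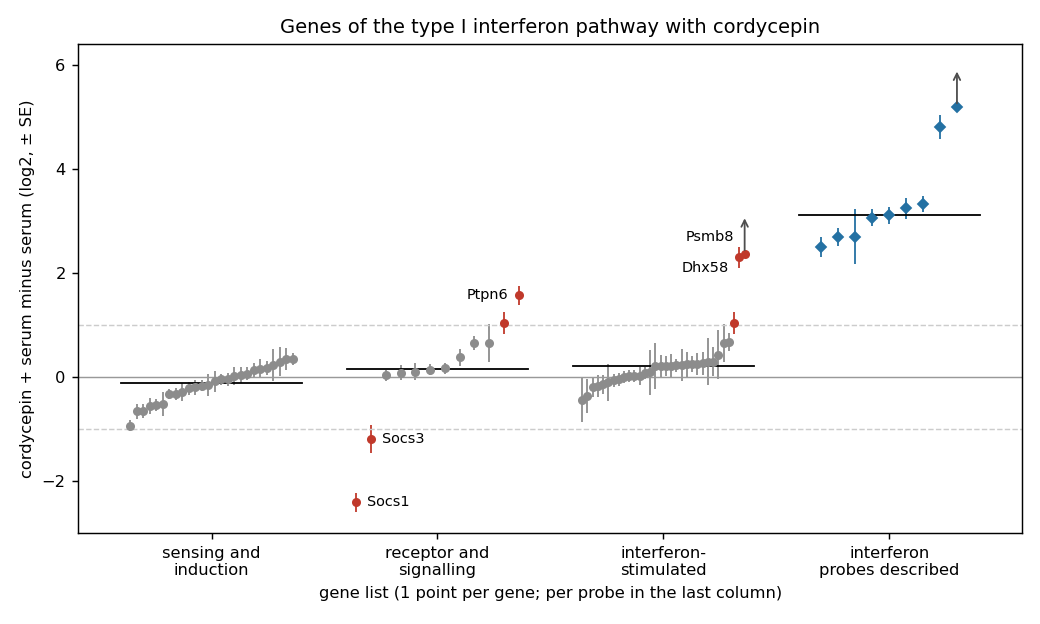
Difference between cordycepin plus serum and serum (vertical axis, log2, with SE) for tested genes of 3 lists and for the 9 tested interferon probes, with 1 point per gene or probe, a black line at each median and dashed lines at −1 and 1. Called genes are red, and those described in the text are named. The medians of the 3 lists lie at −0.11, 0.16 and 0.21 and that of the interferon probes at 3.11, where arrows mark Psmb8 and the second Ifnab probe, drawn at their lower bounds of 2.37 and 5.19.

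Cell type markers were read beside these values. All 8 fibroblast markers were above background on all arrays, with summed levels of 2590 to 3124 with cordycepin, 2295 to 2681 with serum and 2108 to 2455 without serum, as multiples of the 75th percentile. Of 8 leukocyte markers, 7 had a probe. Their summed level was 164 to 206.8 with cordycepin, 148.3 to 152.7 with serum and 140.7 to 152.9 without serum. It was carried by Siglech, at 7.24 with cordycepin and 7.04 with serum, and Itgam, at 4.65 and 4.03, while the defining marker Ptprc was above background on 1 array of each group. The part of the higher leukocyte sum in the interferon values was not tested. Epithelial markers summed to at most 0.0989.

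Genes with the pattern most like that of the 9 tested probes were sought over the 8 arrays, by the root mean square difference between profiles centred on their own means. Among 13896 gene symbols the nearest were Ly6g6c at 0.21, Ikzf4 at 0.23, Slc27a5 at 0.24, Creb1 at 0.25 and Adora2a at 0.26. They lie on chromosomes 17, 10, 7, 1 and 10, none on the interferon chromosome. Ly6g6c, a surface protein gene, had means of 1.68 with cordycepin, −2.17 with serum and −2.62 without serum, and Creb1, a transcription factor gene, 0.06, −3.76 and −3.39. By Pearson distance, 1 of these 5 genes, Ly6g6c, was again among the nearest 5.

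The 8 arrays shared 1 slide and 1 scan. Between 51.1 and 57.1% of probes were above background per array, no spot was saturated, and arrays of a group correlated at 0.993 to 0.996 across probes. With 3, 3 and 2 arrays, the number of arrays limits the precision of every difference.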

How the data were processed

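RNA of 8 NIH3T3 cultures was labelled with Cy3 and hybridised to 1-colour Agilent arrays of 62976 spots with 60-base probes. The deposited values are spot intensities that the authors extracted with Agilent Feature Extraction (10.7.3.1 per the file headers), background-subtracted and detrended, with positions in mm9. The study's methods name limma but no normalisation. Groups came from the sample titles.

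Control and outlier spots were left out, spots of a probe averaged, and the log2 processed intensity was centred on each array's 75th percentile. All 30852 probes well above background on every array of a group were fitted together with limma 3.58.1 in R 4.3.3, with Benjamini-Hochberg adjustment over all of them and 1 mean per group, and calls needed an adjusted p under 0.05 and a log2 difference of at least 1. The calculation was tested on simulated data. A shift common to most transcripts would not be seen after this centring.

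For probes above background on no array of a group, folds are bounds, set on each array by the lowest above-background value, or by the probe's own value where that was greater. The genes and lists were chosen with earlier results of these data known. All probes of the 10 genes, any named gene within 1 Mb, called or described list members (1 probe per gene, the brightest) and the 5 most alike genes could be named. Alternatives were normexp, quantile and spike-in normalisation, no filter, other thresholds, wider flanks, blocks and leaving out arrays. Some members of these lists are counted but not reported here by name.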

Additional observations from a re-analysis of the deposited data

How the results depend on the processing

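The 9 calls of the interferon probes against serum and the 9 against no serum were the same in number, and the serum count stayed at 0, under the quantile, spike-in, unfiltered, threshold and block alternatives. Normexp correction left 8 calls against serum and lowered all differences, to 0.71 for the dim Ifna2 probe, which lost its call, and 1.23 to 2.25 for the others except the second Ifnab probe, the highest; 1 other probe inside the interval was then called higher, Ifna16 falling to 0.82, with 0 flanking probes higher, 3 lower and 4 pathway genes higher, where these include Ifna13, Ifna16 and Ifne. Of the differences from serum, 9 moved by more than the spread between replicates, all under normexp, and 117 did not. Against no serum 15 moved, 9 under normexp, to between 1.07 and 3.41, and 6 under spike-in centring, to between 2.28 and 2.86, where the median of all probes was −0.31 rather than 0.07. None of the differences with cordycepin turned in direction. Between serum and no serum, none of which was called, 4 turned under spike-in centring, such as Ifna14 to −0.23, 3 under normexp, and 1 or 2 under each of quantile normalisation, both blocks and leaving out either array without serum or serum replicate 2 or 3. Quantile normalisation gave 1 lower call inside the interval, Gm13271, and 1 higher call in the flanks. Spike-in centring gave 0 higher calls in the flanks and 1 lower pathway gene, the call of Socs3 being lost, and leaving out the filter gave 1 higher call in the flanks. Without a minimum fold, 2 probes inside the interval and 8 pathway genes were lower, as more small differences then count. The cause of the other changes was not tested.

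Leaving out each array in turn kept 9 calls against serum, 9 against no serum and 0 for serum. The counts inside the interval ran from 2 to 2 higher and from 0 to 1 lower, Gm13271 being called without serum replicate 2. In the flanks they ran from 1 to 2 higher and from 9 to 9 lower, and among pathway genes from 6 to 8 higher and from 1 to 2 lower. The replicate numbers did not pair the samples. Deviations of same-numbered arrays correlated at −0.18 to 0.23, with 2 of 7 pairs over 0.1. With a replicate block the counts were 9, 0 and 9 for the interferon probes, 2 and 0 inside the interval, 2 and 9 in the flanks and 7 and 2 for the pathway genes, as without it.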

Other observations

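A probe with no gene name and no position in the array design, chosen after its values were seen because of its sequence, shared a run of 39 bases with the Ifna5 probe and 22 with the first Ifnab probe. It measured −0.24, −0.40 and −0.75 with cordycepin, −3.84, −3.83 and −3.90 with serum, and −3.74 and −4.04 without serum. Its difference from serum was 3.39 ± 0.15, given as a description without a test. It shares sequence with probes of genes that were chosen on this comparison.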
